A study of Homo sapiens with 12 samples.

Results

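The AP-2 transcription factors are encoded by 5 human genes, TFAP2A, TFAP2B, TFAP2C, TFAP2D and TFAP2E, for the proteins AP-2α, AP-2β, AP-2γ, AP-2δ and AP-2ε. The genes were taken by symbol, and all 5 were listed among the 26485 genes of the expression table. The family was proposed with its levels in these libraries known. It was therefore chosen by the same values given below, and the members' levels are a description with no test. Bulk RNA-sequencing was done on BT474, an established human breast ductal carcinoma line with amplified ERBB2 and estrogen and progesterone receptors. Cells were labelled as Control at day 0, as drug-tolerant persisters (DTP) after 9 days of lapatinib, as drug-tolerant expanding persisters (DTEP) after 6 months and as resistant after 9 months. The last are called long-term resistant (LR) here. Lapatinib inhibits the kinases of EGFR and HER2, the protein encoded by ERBB2. The treatment label gives lapatinib at 1 µM for every group, Control included, although the title of those libraries is that of the untreated start. Each group had 3 libraries of 1 line, and the study describes them as technical replicates from parallel plates. The spread between them, on which every SD and p-value rests, does not cover independent selections.

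AP-2 proteins bind DNA as dimers through a conserved helix-span-helix domain and recognise GC-rich palindromes. In the embryo they act in the neural crest, the skin and the limbs. In the mammary gland AP-2α and AP-2γ mark the epithelium, AP-2γ maintains luminal identity together with the estrogen receptor and FOXA1, and AP-2 activity was first linked to breast cancer through the ERBB2 promoter. AP-2β is best known from the neural crest, kidney and ductus arteriosus, AP-2δ from the nervous system and AP-2ε from the olfactory bulb and cartilage.

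Promoters are shown for TFAP2B, the member with the widest range, and ERBB2, the classical AP-2 target, because the values below turn on both genes. The TFAP2B window is chr6:50818621-50818920 of GRCh38, plus strand, from RefSeq. It runs from 250 bases before to 50 bases from the start of the reference transcript, and capitals mark the bases transcribed in it. The gene record of TFAP2B begins further upstream, at 50818355, so the lower-case bases lie within that record. A start further upstream was not examined. The ERBB2 window has the same length, chr17:39699814-39700113, plus strand, and was read from hg38 around the start of the MANE Select transcript. Its capitals mark the 9 letters GCTGCAGGC that are described as the AP-2 site of this promoter.
TFAP2B: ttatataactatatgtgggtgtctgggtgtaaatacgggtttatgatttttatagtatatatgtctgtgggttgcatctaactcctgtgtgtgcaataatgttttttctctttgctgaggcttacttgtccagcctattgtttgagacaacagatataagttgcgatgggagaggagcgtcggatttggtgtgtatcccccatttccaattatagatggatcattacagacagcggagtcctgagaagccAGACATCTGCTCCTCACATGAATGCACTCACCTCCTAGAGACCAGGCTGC
ERBB2: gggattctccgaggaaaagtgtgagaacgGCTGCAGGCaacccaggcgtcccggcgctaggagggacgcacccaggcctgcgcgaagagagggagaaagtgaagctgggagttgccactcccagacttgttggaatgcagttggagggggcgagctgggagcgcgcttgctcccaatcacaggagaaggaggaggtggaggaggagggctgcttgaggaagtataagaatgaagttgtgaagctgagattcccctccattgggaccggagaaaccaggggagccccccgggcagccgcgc

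The ERBB2 site began 221 bases before the start. These letters, read on both strands, were in 1.28% of 35116 RefSeq promoter windows of this length. They were in none of the 5 windows that matched 4 of the 5 AP-2 genes (TFAP2A, with 2 windows, TFAP2B, TFAP2D and TFAP2E). The general AP-2 motif, GCC and GGC 3 bases apart, is its own reverse complement in form and was in 23.2% of all windows, and with 4 bases between them in 21.4%. Neither spacing was found in any of those 5 windows. The base composition of the windows differed between members. G and C made up 43.0% of the TFAP2B and 39.3% of the TFAP2D window, below the lower quartile of all windows (47.0%), against 61.7% and 68.0% in the 2 windows of TFAP2A and 62.7% in that of TFAP2E. The median of all windows was 58.7%. A match is a description of letters and not a measured binding site.

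Reads assigned to genes ran from 16383363 to 25030482 per library. Values are normalised read counts, which here are CPM values after TMM scaling. Of 10 luminal epithelial markers, each had more than 3 reads in some library of every group, but ESR1 and PGR, which define the receptor status of BT474, were at 0.0553 to 0.211 and 0.332 to 4.02 in LR against 149 to 153 and 1022 to 1262 in Control. In DTEP replicates 1, 2 and 3, ESR1 was at 16.7, 6.88 and 0.842. Other luminal markers were higher in LR than in Control by group mean: GATA3 1251 against 190, FOXA1 799 against 394, EPCAM 246 against 205. CDH1, KRT8, KRT18, KRT19 and ERBB2 had lower means in LR. DTEP replicate 3 stood nearer to LR than the other DTEP libraries, with correlations of 0.971 to 0.986 with LR libraries over all tested genes against 0.913 to 0.956. Markers of fibroblasts, blood and endothelium were mostly at or near 0, the exceptions being COL1A1 (group means of 54.4 to 111), CD68 (1.17 to 2.88) and VWF (8.09 in Control, 0.118 in LR). SOX10 had no read and PAX3 at most 1 in any library. The 4 neural crest and melanocyte markers summed to 9.11 to 9.78 in Control libraries and 5.48 to 7.72 in DTP. Their sums were 9.94 to 12.9 in DTEP and 5.59 to 15.4 in LR. The basal marker sum was 7.64 to 10.4 for Control, 3.55 to 4.95 for DTP, 9.19 to 32.5 for DTEP and 20.01 to 66.7 for LR, nearly all of it TP63 and OXTR, with KRT5 and KRT14 at no more than 2 reads. Genotype and copy number were not measured here, so that a switch in expression within 1 lineage and a change in which cells made up the culture cannot be told apart. The same holds in bulk RNA for fewer cells of a type and less RNA per cell.

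TFAP2B (Entrez 7021, chromosome 6, 50818355 to 50847619) was close to absent in the first 2 states and became the most abundant member in the last 2. Control replicates 1, 2 and 3 had 4, 3 and 1 reads, or 0.184, 0.163 and 0.0466 normalised read counts. The DTP libraries had 0, 0 and 0 reads. The values were 552, 673 and 931 in DTEP and 1248, 1119 and 1119 in LR. Every DTEP and LR library thus lay above every Control and DTP library, and the LR libraries lay above those of DTEP. In means, TFAP2B was at 719 ± 194 in DTEP and 1162 ± 74.1 in LR (SD, n = 3). The DTEP mean was at least 4163-fold higher than the level that 3 reads would give in a DTP library, and the LR mean was 1.62 times the DTEP mean. A count of 0 is compatible with as many as 3 reads, a level of 0.148 to 0.173 in the DTP libraries.

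TFAP2C (chromosome 20, 56629306 to 56639283, Entrez 7022) went the other way. It was at 244, 243 and 242 normalised read counts in Control and at 302, 315 and 338 in DTP. It was at 104, 66.2 and 60.9 in DTEP and 64.8, 55.6 and 55.9 in LR. All 3 DTP libraries were above Control, all late libraries were below both, and DTEP and LR overlapped. The DTP mean (318 ± 18.2, SD, n = 3) was 4.14 times the DTEP mean (76.9 ± 23.3), and the Control mean (243 ± 1.049) was 4.13 times the LR mean (58.7 ± 5.25). TFAP2C was not lost in any library, the fewest reads being 1004 in LR replicate 2.

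TFAP2A (Entrez 7020, chromosome 6, 10396677 to 10419659) was present throughout. It was at 97.0, 98.4 and 92.0 in Control, and at 60.1, 61.9 and 74.8 in DTP. In DTEP it was at 214, 283 and 204 and in LR at 226, 185 and 153. The DTP libraries were the lowest and did not overlap Control, the DTEP libraries were above both, and LR overlapped DTEP. The DTEP mean (234 ± 43.1, SD, n = 3) was 3.56 times the DTP mean (65.6 ± 8.02), and the LR mean (188 ± 36.3) was 1.96 times the Control mean (95.8 ± 3.35). TFAP2A-AS1, a non-coding gene that overlaps TFAP2A, was at 0.0932 to 2.02 normalised read counts. Counting with default settings ignores strand, so that reads in the overlap cannot be assigned between TFAP2A and TFAP2A-AS1.

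TFAP2E (Entrez 339488, chromosome 1, 35573314 to 35595591) was low in all libraries but not level. Its values were 0.138, 0.326 and 0.0466 in Control, 0.626, 0.346 and 0.518 in DTP, 1.77, 0.741 and 3.31 in DTEP and 4.01, 7.75 and 5.38 in LR. The 4 groups stood in the order of treatment time without overlap, although Control and DTP rested on 1 to 12 reads per library. Successive groups did not overlap for 77.3%, 67.3% and 22.5% of all tested genes. How many genes held all 4 in order was not counted. TFAP2D (Entrez 83741, chromosome 6, 50713526 to 50773033), which lies beside TFAP2B, had no read in any of the 12 libraries. Its level was under that of 3 reads, 0.124 to 0.173 normalised read counts, and expression below that was not detectable at this depth. TFAP2D and its neighbour TFAP2B therefore differed in DTEP and LR although they are adjacent genes.

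**Figure D1:**
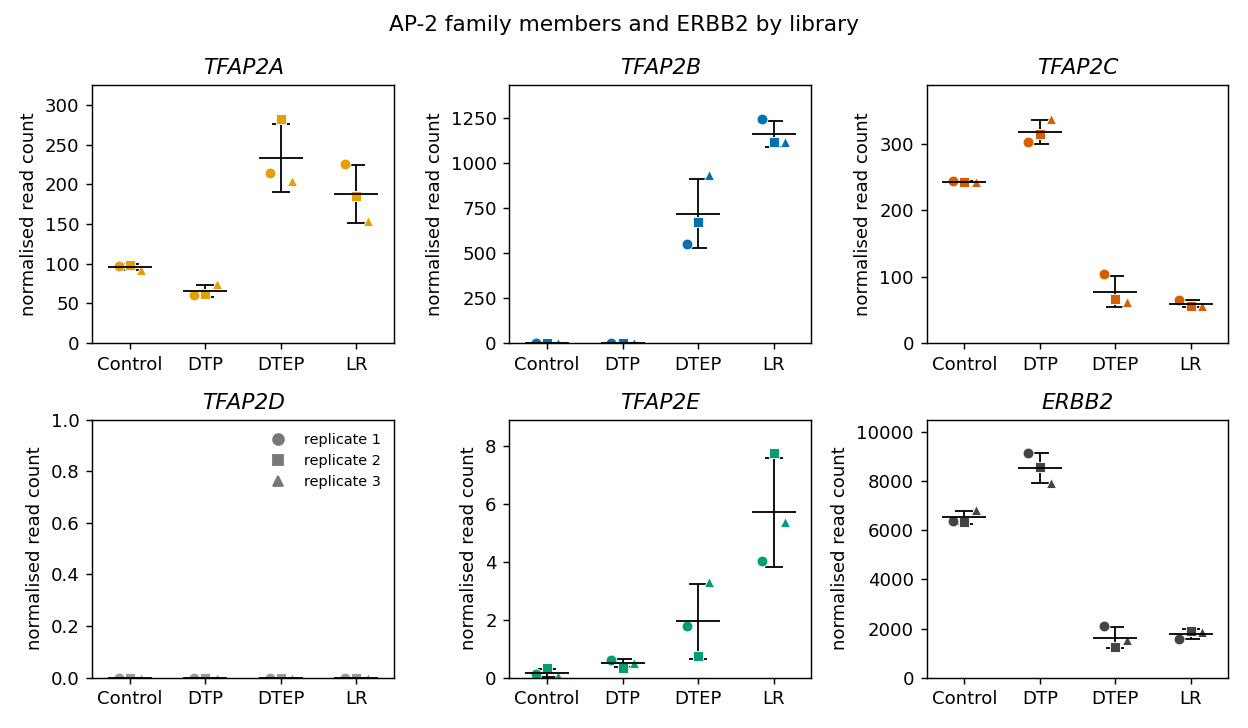
Normalised read counts (y axes, each starting at 0 and each with its own range) of the 5 AP-2 genes and ERBB2 in the 4 groups, with 1 point for each library, a line for the mean and bars for the SD (n = 3). TFAP2B sits at 0.184 or lower in the 6 Control and DTP libraries and between 552 and 1248 in the 6 DTEP and LR libraries, while TFAP2C and ERBB2 are both lower in those 6.

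The filter on low values kept the 13794 genes that reached 1 normalised read count in 3 or more libraries, among them 4 of the 5 members (all but TFAP2D). TFAP2E and TFAP2B passed through their late libraries alone. Differences were fitted with limma on log2(normalised read count + 1) over all genes and 12 libraries, a scale that understates the change of low genes, and calls needed both an adjusted p under 0.05 and an absolute log2 change above 2. The comparisons share libraries, since every group enters more than 1. From Control to DTP the log2 changes were -0.55 for TFAP2A (SE 0.17), -0.18 for TFAP2B (SE 0.18), 0.39 for TFAP2C (SE 0.17) and 0.36 for TFAP2E (SE 0.29). By limma none of the 4 members met the call in either direction (edgeR and DESeq2 called TFAP2B lower, from 8 reads in Control), where 1.01% of tested genes were called higher and 3.9% lower. From DTP to DTEP the changes were 1.81, 9.46, -2.07 and 0.88 in that order. TFAP2B met the call as higher and TFAP2C as lower, against 8.13% and 7.02% of tested genes. The TFAP2C change lay just past the threshold of 2, and it no longer did so without DTEP replicate 2 (-1.99) or DTEP replicate 3 (-1.93). From DTEP to LR the changes were -0.31, 0.72, -0.35 and 1.25, and no member met the call, against 0.225% of genes higher and 0.457% lower. LR against Control gave 0.95, 10.01, -2.03 and 2.49, so that TFAP2B and TFAP2E met the call as higher and TFAP2C as lower, against 5.03% and 7.8%. There too TFAP2C lay inside the threshold without LR replicate 2 (-1.99) or LR replicate 3 (-1.998). These values chose the family, so nothing is read from the counts.

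Groups that did not overlap were common in these data. The 3 libraries of DTEP lay wholly above or below those of DTP for 67.3% of tested genes, and the share was 77.3% for DTP against Control, 22.5% for LR against DTEP and 77.0% for LR against Control. All 4 tested members had DTEP replicate 3 as the DTEP library closest to the LR mean, which also held for 65.0% of all tested genes.

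Levels of different members can be compared only per length of transcript. Normalised read counts were divided by the length of the MANE Select transcript, from 2058 bases for TFAP2D to 5631 for TFAP2B. On this per-kilobase scale the family as a whole was at 114 to 116 for Control, 125 to 142 for DTP, 203 to 253 for DTEP and 269 to 318 for LR. The groups did not overlap and stood in the order of treatment time, an order whose share over all genes was not counted. The make-up changed more than the total. TFAP2C held 72.9 to 74.2% of the family level in Control and 83.1 to 84.7% in DTP, but 8.41 to 17.8% in DTEP and 6.92 to 7.24% in LR. TFAP2B held at most 0.0281% in Control and none in DTP, and then 48.3 to 65.4% in DTEP and 69.7 to 73.8% in LR. TFAP2A held 25.7 to 26.9%, 15.2 to 16.8%, 25.6 to 38.6% and 18.1 to 22.6% in the 4 groups. The family in DTEP and LR was thus mainly TFAP2B with TFAP2A, where it had been mainly TFAP2C with TFAP2A.

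The order of levels followed from this. In Control and DTP it was TFAP2C, TFAP2A, and then TFAP2E and TFAP2B near 0. Per kilobase, TFAP2C was 2.71 to 2.88 times TFAP2A in Control libraries and 4.96 to 5.58 times in DTP. In DTEP and LR the order was TFAP2B, TFAP2A, TFAP2C and TFAP2E in every library. The ratio of TFAP2C to TFAP2A was then 0.257 to 0.533 in DTEP and 0.315 to 0.400 in LR. Among 17854 genes with a transcript length, TFAP2B ranked 247th to 868th per kilobase in DTEP libraries and 158th to 209th in LR, while TFAP2C went from 734th to 743rd in Control to 3387th to 3862nd in LR.

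**Figure D2:**
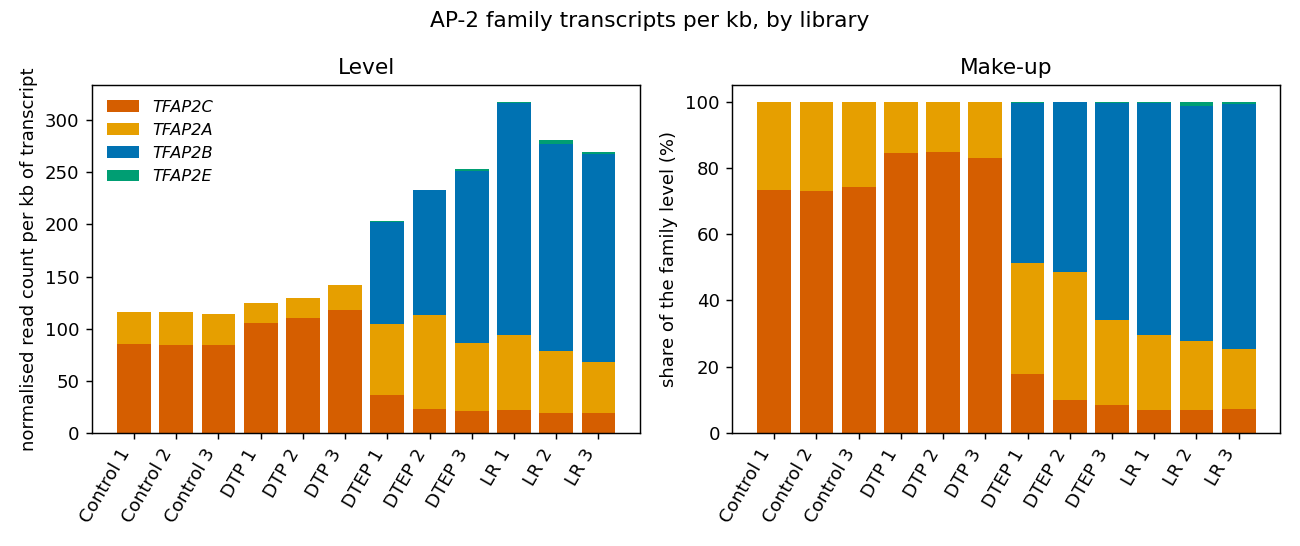
Normalised read count per kilobase of transcript (left, y axis from 0) and share of the family level in percent (right) for TFAP2C, TFAP2A, TFAP2B and TFAP2E in each of the 12 libraries. The TFAP2C share is 72.9% or more in the 6 Control and DTP libraries and 17.8% or less in the 6 DTEP and LR libraries, where TFAP2B takes 48.3% or more.

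The members are related in sequence, so it was asked whether reads could pass between them. Among the 10 pairs of MANE Select transcripts, none shared a run of 50 bases, and the longest identical run was 31 bases, between TFAP2A and TFAP2B. The DTP libraries with TFAP2A at 60.1 to 74.8 had no TFAP2B read. The reverse, TFAP2B reads counted as TFAP2A in DTEP and LR, was not tested.

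To place TFAP2B among all genes, genes with at most 3 reads in each Control and DTP library and a value of at least 10 in each DTEP and LR library were counted. There were 25 such genes, and 1 gene with the reverse pattern. TFAP2B was outside the 25 by 1 read, since Control replicate 1 had 4. With 5 reads allowed, a limit set after that was seen, 29 genes or 0.109% of those listed qualified. TFAP2B was among them by that choice of limit. Its mean late value was the highest of the 29 without division by transcript length, so their levels are not compared.

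The genes most like each member were taken by Pearson's r of log2 values over the 12 libraries, which share 4 group means and so give high correlations easily. For TFAP2B these were TRIM4, a ubiquitin ligase (r = 0.9995), FAM221A (0.999) and the pseudogene ALOX12P2 (0.999). TRIM4, at chromosome 7, was listed at 0 in all 6 early libraries and at 57.4 to 102 in the late ones. For TFAP2C they were STX16, a syntaxin of the trans-Golgi (0.998), CCZ1 (0.997), which has a near-identical copy so that its counts are uncertain, and CWC25, a splicing factor (0.997). For TFAP2A they were TMED10, a cargo receptor of the early secretory pathway (0.995), SNRNP27 (0.992) and TM4SF1 (0.991), and for TFAP2E SEPT7-AS1 (0.984), CA11 (0.975) and ATE1-AS1 (0.974).

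STX16 lies on chromosome 20, as TFAP2C does, and CWC25 on chromosome 17, as ERBB2 does. After this was seen, chromosomes were counted for the 895 genes with r above 0.95 with TFAP2C. Of those with coordinates, 11.1% were on chromosome 17 and 6.74% on chromosome 20, against 6.04% and 2.77% of all tested genes other than TFAP2C, a set that includes the 895. For the 654 genes with r above 0.95 with TFAP2B the shares were 6.55% and 3.28%.

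Genes within 1 Mb of a member were examined beside the AP-2 genes. The list held 83 genes, 45 of which were tested, with a median log2 change from DTP to DTEP of -0.11, against 0.08 over all tested genes. Most of the called genes were neighbours of TFAP2C. Of its 20 listed neighbours 11 were tested, and limma called 6 of them lower in DTEP than DTP and 0 higher (1 higher at an unadjusted p under 0.05, and 0 by edgeR or DESeq2), against 7.02% and 8.13% of all genes, and 10 of the 11 changes were negative (median -2.13). BMP7, a bone morphogenetic protein and the nearest gene on one side, was at 20.2 to 20.8 in DTP and 0.0561 to 0.431 in DTEP (log2 change -4.19, SE 0.16, limma adjusted p 2.38e-09). It had already fallen from 269 to 297 in Control (-3.72, SE 0.16, limma adjusted p 5.16e-08). RAE1, an mRNA export factor, fell from 864 to 965 in DTP to 55.6 to 193 in DTEP (-3.09, SE 0.32, limma adjusted p 3.65e-06). RBM38, an RNA-binding p53 target, fell from 125 to 186 to 5.89 to 28.5 (-3.30, SE 0.41, limma adjusted p 1.78e-05). RTFDC1, whose product acts at replication termination, changed by -2.16 and was not called without DTEP replicate 3. FAM209A and FAM209B, the latter the nearest gene on the other side, changed by -2.13 and -2.39 from levels under 10. The mitotic kinase AURKA was the exception, falling from Control to DTP (-2.44, SE 0.27, limma adjusted p 2.82e-05) and at 0.83 from DTP to DTEP, which was not called. Within 500 kb, 3 of 8 tested neighbours of TFAP2C were called lower.

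For the neighbours of the other members, the share to compare with in DTEP against DTP is 15.2% of all tested genes called. Apart from each other, TFAP2B and TFAP2D had no listed gene within 500 kb. None of the 10 genes listed within 1 Mb of TFAP2B was tested, 8 of them had no read in any library, and the highest value was 1.16, that of PKHD1, the nearest gene on one side. DEFB112, the nearest on the other, had no read. Around TFAP2A, 1 of 10 tested genes was called in DTEP against DTP, NEDD9, a scaffold of integrin signalling (-3.71, SE 0.62, limma adjusted p 0.000195), after a rise from Control to DTP (2.10, SE 0.62, limma adjusted p 0.0129). LINC00518, the nearest gene that does not overlap TFAP2A, had at most 1 read. Around TFAP2E, 1 of 24 was called, CLSPN, a checkpoint adaptor, which fell in DTP (-4.37, SE 0.57, limma adjusted p 7.69e-05) and rose in DTEP (3.32, SE 0.57, limma adjusted p 0.000254). The nearest genes to TFAP2E, NCDN and PSMB2, had log2 changes of 1.41 and -0.33 from DTP to DTEP and were not called. NCDN was called higher in LR against Control, at 2.22. In LR against DTEP limma called 0 of the 45 neighbours, against 0.681% of all tested genes, with 14 at an unadjusted p under 0.05. There edgeR and DESeq2 called 1 and 3.

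**Figure D3:**
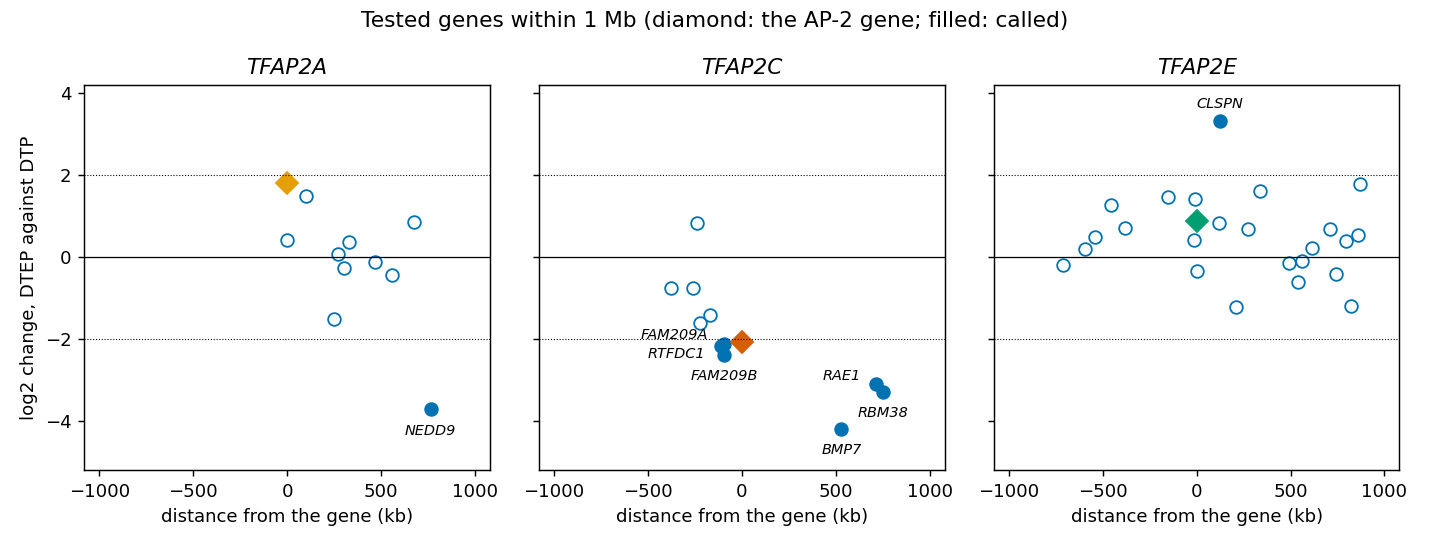
Log2 change from DTP to DTEP (y axis, dotted lines at -2 and 2) of tested genes within 1 Mb of TFAP2A, TFAP2C and TFAP2E against their distance in kilobases from the gene (x axis, negative towards lower coordinates). The diamond is the AP-2 gene and filled points were called. Of the 11 neighbours of TFAP2C, 10 lie below 0 and 6 are called lower. Around TFAP2A 1 of 10 is called and around TFAP2E 1 of 24, and over all tested genes 15.2%.

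A list of 23 genes described as AP-2 targets in some cell type, activated or repressed, was then followed. It was drawn up with earlier results of these data known, and 19 of its genes were tested, the others (KRT5, KRT14, KIT and MMP2) being too low. In DTP against Control, 0 were higher (1 at an unadjusted p under 0.05, and 0 by edgeR and DESeq2) and 3 lower by limma, against 1.01% and 3.9% of all genes. In DTEP against DTP, 2 were higher and 10 lower (12 of 19), with a median log2 change of -2.10, against 0.08 for all genes, of which 8.13% were higher and 7.02% lower. In LR against DTEP limma, edgeR and DESeq2 called 0 higher, with 2 at an unadjusted p under 0.05, and limma called 3 lower. Over all genes limma called 0.225% higher and 0.457% lower there. In LR against Control 2 were higher and 9 lower, against 5.03% and 7.8% of all genes. The median there was -1.88 against -0.03 for all genes. AP-2 factors are not the only regulators of these genes, several of which also respond to the estrogen receptor, and no binding was measured.

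ERBB2, on chromosome 17, was the most abundant receptor on the list. It was at 6389.8, 6356 and 6833 in Control, 9136, 8583 and 7917 in DTP, 2103, 1244 and 1534 in DTEP and 1555, 1897 and 1870.4 in LR. As with TFAP2C, DTP was above Control, both late groups were below, and DTEP and LR overlapped. Groups did not overlap for 77.3% of tested genes in DTP against Control and 67.3% in DTEP against DTP. Over the 12 libraries 895 tested genes had r above 0.95 with TFAP2C. The log2 change of ERBB2 was 0.39 in DTP (SE 0.23), then -2.42 (SE 0.23, limma adjusted p 1.86e-06) from DTP to DTEP and 0.15 in LR against DTEP (SE 0.23). The last had the opposite sign, -0.023, without DTEP replicate 2. The change from Control to LR of -1.88 lay inside the threshold of 2. From DTP to DTEP the log2 changes of TFAP2C and ERBB2 were -2.07 and -2.42, in the same libraries in which TFAP2B and TFAP2A were higher. ERBB2 lies in the amplified segment of BT474, and the parts of copy number and of transcription in its level were not tested.

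Of the tested targets, GREB1 and ESR1 had the lowest log2 changes from DTP to DTEP. GREB1, an estrogen receptor cofactor, was at 456, 456 and 557 in DTP and at 61.8, 26.0 and 4.38 in DTEP (log2 change -4.55, SE 0.62, limma adjusted p 4.19e-05). ESR1, the estrogen receptor itself, fell by 4.05 (SE 0.57, limma adjusted p 5.2e-05). DTEP replicate 3 was the lowest DTEP library for both, near the LR level. Both were also called lower in LR against DTEP, GREB1 by -3.37 (SE 0.62, limma adjusted p 0.0132) and ESR1 by -2.46 (SE 0.57, limma adjusted p 0.0308). The GREB1 call was lost without DTEP replicate 2. The ESR1 call was lost when any 1 library other than DTP replicate 3, DTEP replicate 3 or LR replicate 3 was left out.

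CDH1, which encodes E-cadherin, went from 661, 716 and 852 in DTP to 150.0, 89.0 and 88.9 in DTEP (-2.79, SE 0.21, limma adjusted p 3.15e-07). MUC1, a membrane mucin, changed by -2.94 (SE 0.25, limma adjusted p 8.7e-07) and KRT8, a luminal keratin, by -2.10 (SE 0.28, limma adjusted p 3.25e-05). KRT8 dropped below the threshold without DTP replicate 1, DTEP replicate 2 or DTEP replicate 3. The adhesion molecules MCAM and CD44, described as repressed by AP-2α or AP-2γ in other cells, changed by -3.04 (SE 0.28, limma adjusted p 1.68e-06) and -2.96 (SE 0.55, limma adjusted p 0.000454). CD44 was again called in LR against DTEP, at -2.06 (limma adjusted p 0.0459), a call that 15 of 23 alternative settings did not make.

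Among targets in growth and survival, BCL2, an inhibitor of apoptosis, changed by -2.17 (SE 0.24, limma adjusted p 6.81e-06) and CDKN1A, the p21 cell cycle inhibitor, by -2.44 (SE 0.73, limma adjusted p 0.0101). Neither was called without DTEP replicate 3, in which CDKN1A was at 0.842 against 21.3 and 11.7, and edgeR did not call CDKN1A. RET, a receptor tyrosine kinase, was at 91.5, 90.7 and 90.8 in Control, 14.9, 14.8 and 14.6 in DTP and 60.04, 46.1 and 116 in DTEP. It fell by 2.55 (SE 0.28, limma adjusted p 2.4e-05) and rose by 2.14 (SE 0.28, limma adjusted p 2.75e-05), the rise not being called without DTEP replicate 3. EGFR, repressed by AP-2 in some cells, fell in DTP by 2.36 (SE 0.30, limma adjusted p 6.29e-05), as did the thrombin receptor F2R by 2.43 (SE 0.12, limma adjusted p 6.91e-08). Neither recovered, with EGFR at 0.111 to 0.921 in LR.

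CRABP2, a retinoic acid carrier, had the widest rise on the list. It was at 53.8, 52.6 and 60.5 in Control, 28.2, 26.0 and 23.0 in DTP, 825, 360.2 and 617 in DTEP and 714, 718 and 612 in LR. All late libraries were above all early ones, and the rise from DTP to DTEP was 4.42 (SE 0.23, limma adjusted p 2.49e-08). VEGFA, named after its values were seen, changed by 1.97 in the same comparison and was past the threshold only in LR against Control (2.48, SE 0.20, limma adjusted p 6.14e-07). Of the 12 targets called from DTP to DTEP, 10 were lower and 2 higher. In the same DTEP libraries TFAP2C was lower and TFAP2B and TFAP2A were higher. Whether any member acts on these genes was not tested.

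**Figure D4:**
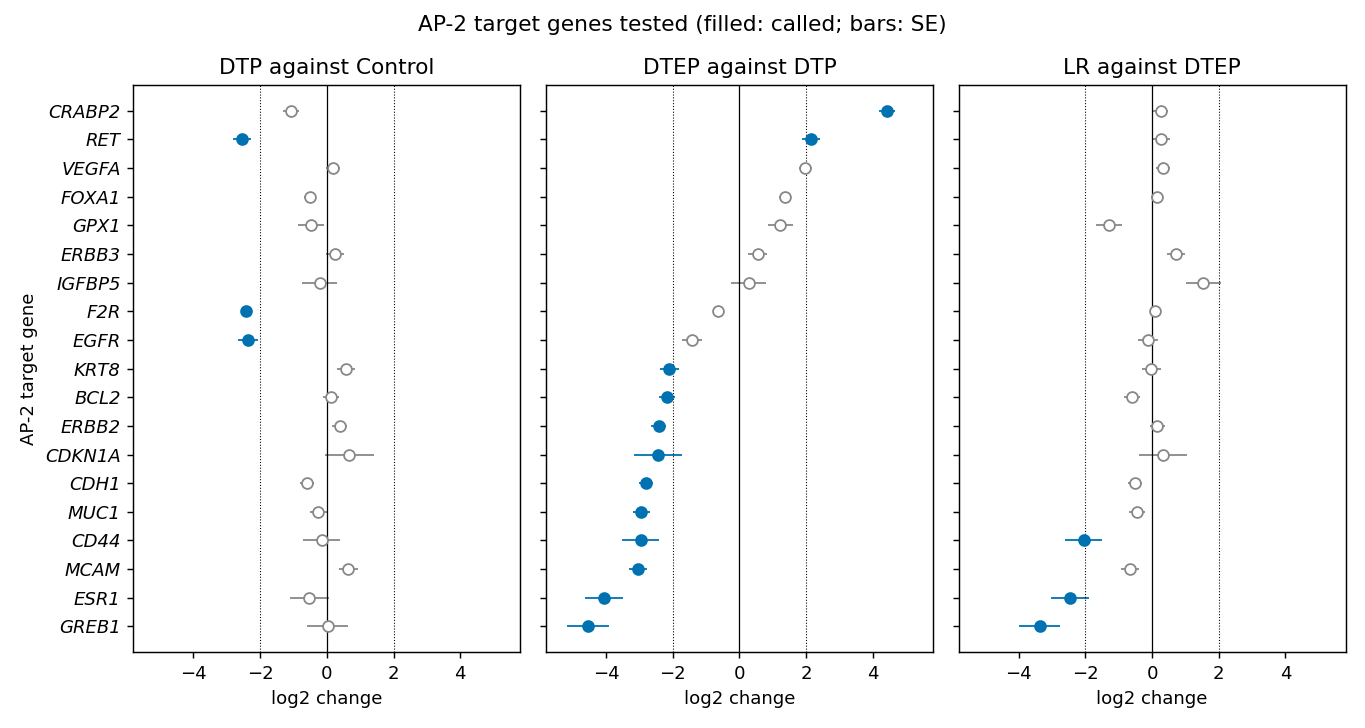
Log2 change (x axes, dotted lines at -2 and 2) of the 19 tested AP-2 target genes in DTP against Control, DTEP against DTP and LR against DTEP, ordered by the second, with bars for the SE and filled points for called genes. Called genes number 3, 12 and 3, and in the middle panel 10 of the 12 lie left of 0.

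Of the 23 targets, 16 had a RefSeq promoter window. GCC and GGC 3 bases apart were found in the windows of 7 of these genes and in 8 of their 24 windows, where 23.2% of all windows held them. The 9 letters of the ERBB2 site were in none, since the table's window for ERBB2 lies at an upstream start and not at the start shown above.

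Cofactors were looked at because AP-2 proteins need them to act. Of 15 genes, all tested, limma called 2 higher and 0 lower in DTP against Control, where 1.01% and 3.9% of all tested genes were called. At an unadjusted p under 0.05 in limma 8 were lower there, and 0 by edgeR or DESeq2. In DTEP against DTP limma called 2 of the 15, both lower (13.3%), where 15.2% of all tested genes were called. In LR against Control limma called 0, against 12.8%, with 3 higher and 8 lower at an unadjusted p under 0.05. There edgeR and DESeq2 each called 1. The 2 higher in DTP were CITED2 and CITED4, which encode adaptors that bring the acetyltransferases p300 and CBP to AP-2. CITED2 was at 22.9, 22.8 and 20.5 in Control and 87.7, 100.3 and 107 in DTP (2.10, SE 0.20, limma adjusted p 9.39e-06), and stayed at 51.3 to 108 in the late libraries. CITED4 rose by 2.70 (SE 0.43, limma adjusted p 0.000289) and then fell by 3.44 (SE 0.43, limma adjusted p 1.92e-05), to 1 read or none in each LR library. The 2 CITED genes thus parted after DTP. WWOX, whose protein holds AP-2γ in the cytoplasm, fell from DTP to DTEP by 2.51 (SE 0.22, limma adjusted p 9.99e-07), from 27.5, 30.3 and 28.8 to 4.93, 4.70 and 3.31. Its Control values, 7.86, 8.21 and 11.1, lay between these, and from Control to DTP its log2 change was 1.58 (SE 0.22, limma adjusted p 0.000105), short of the call's threshold on size. In LR against DTEP limma called 0 cofactors, against 0.681% of all tested genes, with 8 at an unadjusted p under 0.05. There too edgeR and DESeq2 each called 1.

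Luminal transcription factors did not move as 1 group. Of 9, all tested, 0 were called in DTP against Control by limma, edgeR or DESeq2, with 5 lower and 1 higher at an unadjusted p under 0.05 in limma. Over all tested genes 4.92% were called by limma there. In DTEP against DTP 2 were higher and 2 lower, against 8.13% and 7.02% of all tested genes. In LR against DTEP 1 was higher and 2 lower, against 0.225% and 0.457%. In LR against Control 3 were higher and 2 lower, against 5.03% and 7.8%. The lower genes were in each case ESR1 and PGR, the progesterone receptor, which changed by -4.20 and then -4.03 (SE 0.70 for both, limma adjusted p 0.000207 and 0.0103). The second of these PGR calls was lost without DTEP replicate 2 and with only the 6 libraries of that comparison. TRPS1, a GATA-type repressor, rose in DTEP by 3.20 (SE 0.28, limma adjusted p 1.21e-06), from 93.0, 108 and 139 to 599, 1241 and 1491. XBP1, a secretory and stress response factor, rose by 2.17 (SE 0.17, limma adjusted p 4.38e-07). FOXA1, the usual partner of AP-2γ at estrogen receptor sites, was at 575, 660.2 and 958 in DTEP and was not called in any comparison.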

How the data were processed

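RNA of 12 BT474 samples was made into libraries with a stranded Illumina TruSeq kit. Alignment by the authors used Rsubread and hg38, with reads given to RefSeq gene models by the same package at default settings. The deposited values are a signal, namely gene counts scaled by edgeR's TMM factors to CPM. Whole reads were recovered from the size of 1 read in each library, and 100% of 199680 values above 0 were whole within 1e-06.

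Tests used limma 3.58.1 with a trend on log2(value + 1), 13794 genes (value of at least 1 in 3 libraries), all 12 libraries, no block, and Benjamini-Hochberg adjustment, after the study's own tool and thresholds. The count tools, edgeR 4.0.16 and DESeq2 1.42.0, were run on recovered reads as alternatives. Scripts were tested on simulated data. The members and lists were chosen with earlier results of these data known. Named genes were the members, ERBB2, the 3 genes most like each member, listed genes called in a successive transition, and the nearest and the called neighbours. 1 luminal factor is counted but not reported by name here. Coordinates are GRCh38 from RefSeq. Intervals and floors cover counting error only. Python 3.11.15 and R 4.3.3 were used.

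Replicate numbers did not pair the libraries: over 18 same-numbered pairs the correlation of deviations from group means ran from -0.44 to 0.36, and it was above 0.1 in 2.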

Additional observations from a re-analysis of the deposited data

How the results depend on the processing

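Each group had 3 libraries of 1 line, so the SDs and tests do not reach beyond these cultures. Depth limits TFAP2D, TFAP2E and the early values of TFAP2B, whose log2 changes rest on the pseudocount: from DTP to DTEP TFAP2B was 9.46 with 1 added, 10.46 with 0.5 and 12.78 with 0.1, and for LR against Control 10.01, 10.85 and 12.35. TFAP2A kept its direction and moved by less than the pooled SD of the groups compared in all 92 refits.

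Counts of called genes moved most in LR against DTEP. With only the 6 libraries of that comparison, 0 genes were called, and so 0 targets and 0 luminal factors, against 94, 3 and 3. Leaving out 1 library gave 25 (without DTEP replicate 2) to 306 genes (without DTEP replicate 3), 0 to 4 targets (the same libraries), 1 to 3 luminal factors (1 without DTEP replicate 1, DTEP replicate 2 or LR replicate 2) and 0 to 3 neighbours (3 without DTEP replicate 3). The targets were 1 without any 1 Control library, DTP replicate 1, DTP replicate 2, DTEP replicate 1, either of LR replicates 1 and 2. Without the filter 60 genes and 1 target were called. Over all genes the counts there were 324 with a pseudocount of 0.1, 159 with 0.5, 581 by edgeR, 699 by DESeq2 and 545 at an absolute log2 change above 1. In LR against Control, leaving out 1 library gave 0 to 1 cofactors (1 without Control replicate 2).

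For DTP against Control (678 genes called) the alternatives gave 1181 with a pseudocount of 0.1, 1270 by edgeR, 1271 by DESeq2 and 3453 at the lower threshold, for DTEP against DTP (2091) 3142, 3288, 3254 and 5785, and for LR against Control (1770) 2698, 2773, 2760 and 5035, in that order. The neighbours (4, 8 and 9) came to 8, 10, 10 and 13 in the first, and 14, 14, 16 and 15 in the last. In DTEP against DTP they were 13 by edgeR and by DESeq2 and 19 at the lower threshold. In LR against DTEP, where 0 were called, they were 1 by edgeR, 3 by DESeq2 and 2 at the lower threshold. Cofactors at the lower threshold were 5 for DTP against Control and 4 for both DTEP against DTP and LR against Control. In the last, 1 was called with either smaller pseudocount, by edgeR and by DESeq2. In LR against DTEP both of these tools also called 1. Luminal factors at the lower threshold were 2 in DTP against Control and 8 in DTEP against DTP. ERBB2 was then called in LR against Control, at -1.88. In LR against DTEP its change ran from -0.023 (without DTEP replicate 2, a change of sign) to 0.3551 (without DTEP replicate 1) when single libraries were left out. The cause of these differences was not tested.

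With a replicate block, the targets called were 3, 12, 2 and 11 in the 4 comparisons, and the count over all genes in LR against DTEP was 80. The replicate numbers were not shown to pair the libraries. CD44 lost its call in LR against DTEP under the block, and no other listed gene did.

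Genes off early and on late numbered 83 with a late level of at least 1, 4 with at least 100 and 8 with 0 early reads, and the reverse pattern was held by 29, 0 and 0, which are descriptions with no test. Under median-of-ratios scaling the all-gene median shifted by 0.04, -0.10, 0.03 and -0.02 in the 4 comparisons. By Spearman's rho, SEPT7-AS1 of the named genes stayed among the first 3, for TFAP2E.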
